A study of Rattus norvegicus with 145 samples.

Results

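A set of 99 rat genes was found at substantial levels in cerebral cortex and in cerebellum and at low levels in striatum. They were 99 of the 32883 genes in the deposited tables. Each had a mean of at least 2 in wild-type (WT) cortex and in WT cerebellum at 19 months of age, on the TPM scale (relative transcript abundance, scaled for gene length and for the library's total). Each was at least 4 times higher in both regions than in WT striatum, with a cortex to cerebellum ratio between 0.33 and 3. These levels chose the genes, so the region levels at 19 months are given as a description and were not tested.

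The cortex and the cerebellum both hold large numbers of glutamatergic neurons, whereas the principal cells of the striatum are GABAergic medium spiny neurons, the cells most affected in Huntington's disease. Cortex and cerebellum also lie at the surface of the brain, under the meninges, while the striatum lies deep, beneath the white matter that separates it from the cortex. A striatal block that takes in overlying tissue can therefore carry transcripts of its neighbours. The identifiers are Ensembl gene IDs without symbols in the files, and 0 of 32883 matched the gene table used here, so the function of the 99 genes is not stated, their sequences are not shown, and the lists of pathway genes and cell type markers drawn up for this work were not used.

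The animals were Long Evans rats, either WT or heterozygous for a huntingtin knock-in called Q130 (KI). RNA of whole dissected tissue was sequenced from striatum at 2, 6, 10, 19 and 24 months, from cortex at 10, 19 and 24 months and from cerebellum at 19 and 24 months, giving 63, 51 and 31 libraries from 63 animals. The KI and WT groups of 10 and of 19 months held 10 animals each, 5 of either sex. At 24 months there were 7 KI animals (3 female, 4 male) and 4 WT animals (2 of each sex). The libraries of 2 and 6 months came from 3 males per genotype of an earlier study. Libraries are named here by genotype, sex and replicate number, within a region and age. The number follows the labels and names different animals in different regions in most cases, so KI M2 of striatum and KI M2 of cerebellum are not taken as one animal. Comparisons within animals used the animals' identifiers. Animals of different ages were different animals, and the 19-month animals carried another style of identifier, so age and cohort cannot be told apart. Total estimated counts, in units of 1000000, lay between 26.7 and 34.5 for striatal libraries, between 28.9 and 47.3 for cortical ones and between 25.6 and 34.4 for cerebellar ones. The 99 genes made up 0.0814% of the summed TPM-scale values in striatum, 0.66% in cortex and 0.685% in cerebellum, and a median of 34400, 315000 and 275000 estimated counts per library.

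In WT animals of 19 months the mean level of the 99 genes ran from 2.03 to 1020 in cortex (median 18.9) and from 2.01 to 939 in cerebellum (median 24.1). In striatum it ran from 0.0923 to 109 (median 1.91). Of the 99 genes 38 were higher in cortex while 61 were higher in cerebellum. The smaller of the ratios to striatum had a median of 6.55. It was at least 10 for 33 genes, at least 20 for 14, and between 4 and 5 for 28. The nearest genes inside the limit stood at 4.01, 4.02 and 4.04, and the nearest outside at 3.99, 3.93 and 3.93, so the edge of the set is not a gap in the data.

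One of the 99 genes entered through an unusual pattern of counts. ENSRNOG00000058439, picked out after its values were seen, had a rounded estimated count of 1 to 3 in 104 of the 145 libraries. In 33 libraries it had 103 to 106 counts, in 6 it had 206 to 208, and in 2 it had 308 and 309, with no library between these steps. Of the 10 WT libraries of 19 months that chose the genes, 5 in cortex and 4 in cerebellum were above 100 counts, and 0 in striatum. Its means there were 3.34, 2.01 and 0.0923 on the TPM scale. In 30 of the 51 animals sampled in more than 1 region the gene was on a higher step in one region and on the lowest in another.

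**Figure D1:**
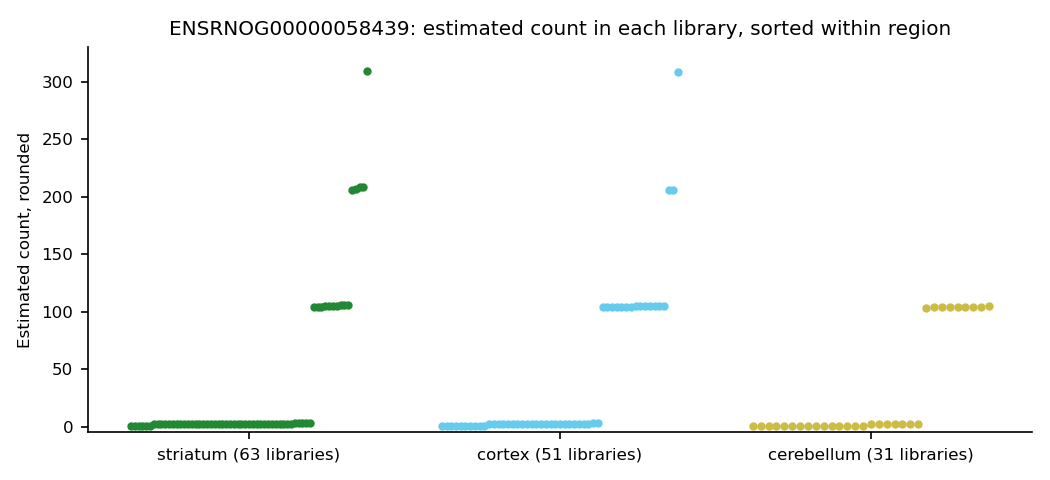
Rounded estimated count of ENSRNOG00000058439 (vertical axis) in every library of the 3 regions, sorted within each region; each point is 1 library. The points lie at 1 to 3, 103 to 106, 206 to 208 or 308 and 309 counts and nowhere between.

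The regional pattern was then tested in libraries that had not chosen the genes. In WT animals of 10 months, 92 of the 97 genes that passed the filter on low counts were higher in cortex than in striatum (edgeR quasi-likelihood test with the animal as a block, Benjamini-Hochberg adjusted p under 0.05 over all genes), against 35.6% of all 15296 genes tested. The median log2 difference was 2.79 over the 97 genes and -0.02 over all genes. On the TPM scale 84 of the 99 were at least 4-fold higher in cortex (n = 10), and in 80 the lowest cortical library lay above the highest striatal one. The share of all genes that met these limits was not determined. In WT animals of 24 months 94 of 98 were higher in cortex than in striatum, against 26.7% of all genes, and 96 of 98 were higher in cerebellum than in striatum, against 30.6% (edgeR, n = 4 per region). The medians at 24 months were 7.86-fold for cortex and 9.59-fold for cerebellum. The low striatal level was thus found at both other ages for nearly all of the genes that could be tested.

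Between cortex and cerebellum the 99 genes were not alike. In WT animals of 24 months 45 of 98 were higher in cortex, where 36.2% of all 15503 genes were, and 39 of 98 were higher in cerebellum, where 37.1% were (edgeR, animal as a block). The log2 differences among those called ran from 0.21 to 1.81 and from -2.07 to -0.17. The rule had limited the ratio of these regions at 19 months, so their similar level is not a finding.

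The same rule applied to other libraries returned most of the genes. WT libraries of 24 months gave 121 genes, among them 79 of the 99 (79.8% of the 99 and 65.3% of the list of 121). KI libraries of 19 months gave 105 genes with 87 shared (87.9% and 82.9%), and KI libraries of 24 months gave 82 with 66 shared (66.7% and 80.5%). Without WT M4 of 19 months, a striatal library with an exceptionally low level of the genes, 88 of the 99 met the rule and no other gene joined them.

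The 99 genes did not vary as a unit. They were grouped by how they rose and fell together over the 51 cortical libraries, after removing group means (average linkage, correlation above 0.5). Among the larger clusters the one with the largest median SD in cortex was taken, a cluster of 15. Its cortical spread and correlation therefore follow from the choice. The median SD of a gene over cortical libraries was 0.71 log2 units in these 15 and 0.20 in the other 84. In the 31 cerebellar libraries, which were not used to form the cluster, the values were 1.01 and 0.18. The median correlation between pairs of the 15 was 0.767 in cortex and 0.865 in cerebellum, but 0.174 in striatum, whereas pairs taken between the 15 and the 84 had medians of 0.0693, -0.188 and 0.09. These are correlations over libraries of several groups and of partly the same animals, given without a test, and the cluster was formed after values had been seen. Of the 84, 42 fell in 1 larger cluster. ENSRNOG00000058439 stood alone, and is counted with the 84.

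In cortex and cerebellum the 15 variable genes differed between libraries by far more than the other genes did. In cortex this follows from how they were chosen. Their mean level, as the average of log2(TPM-scale value + 0.1), ran from 0.11 to 4.01 over cerebellar libraries (median 3.49) and from 0.19 to 3.43 over cortical libraries (median 2.66). The mean level of the 84 ran from 4.47 to 5.05 in cerebellum and from 4.18 to 4.92 in cortex on the same scale. In striatum the ranges were alike, from -0.0902 to 2.48 for the 15 and from 0.619 to 2.79 for the 84, with a median SD of a gene of 0.61 and 0.476 log2 units. Low libraries of the 15 were found in both genotypes: WT M4 of 19 months stood at 0.57 and KI F2 at 0.97 in cerebellum, where the medians were 3.45 and 3.5. KI M3 and KI M2 stood at 0.11 and 1.22 in cerebellum of 24 months. In cortex of 10 months KI M1, M2 and M3 stood at 0.47, 0.42 and 0.19, while the lowest WT library, M3, stood at 1.07. The level in cortex and in cerebellum of the same animals had a Pearson correlation of -0.412 at 19 months (Spearman -0.463, n = 20) and of -0.0587 at 24 months (Spearman 0.409, n = 11). Only 3 of the 15 met the rule again in WT animals of 24 months, against 76 of the 84.

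**Figure D2:**
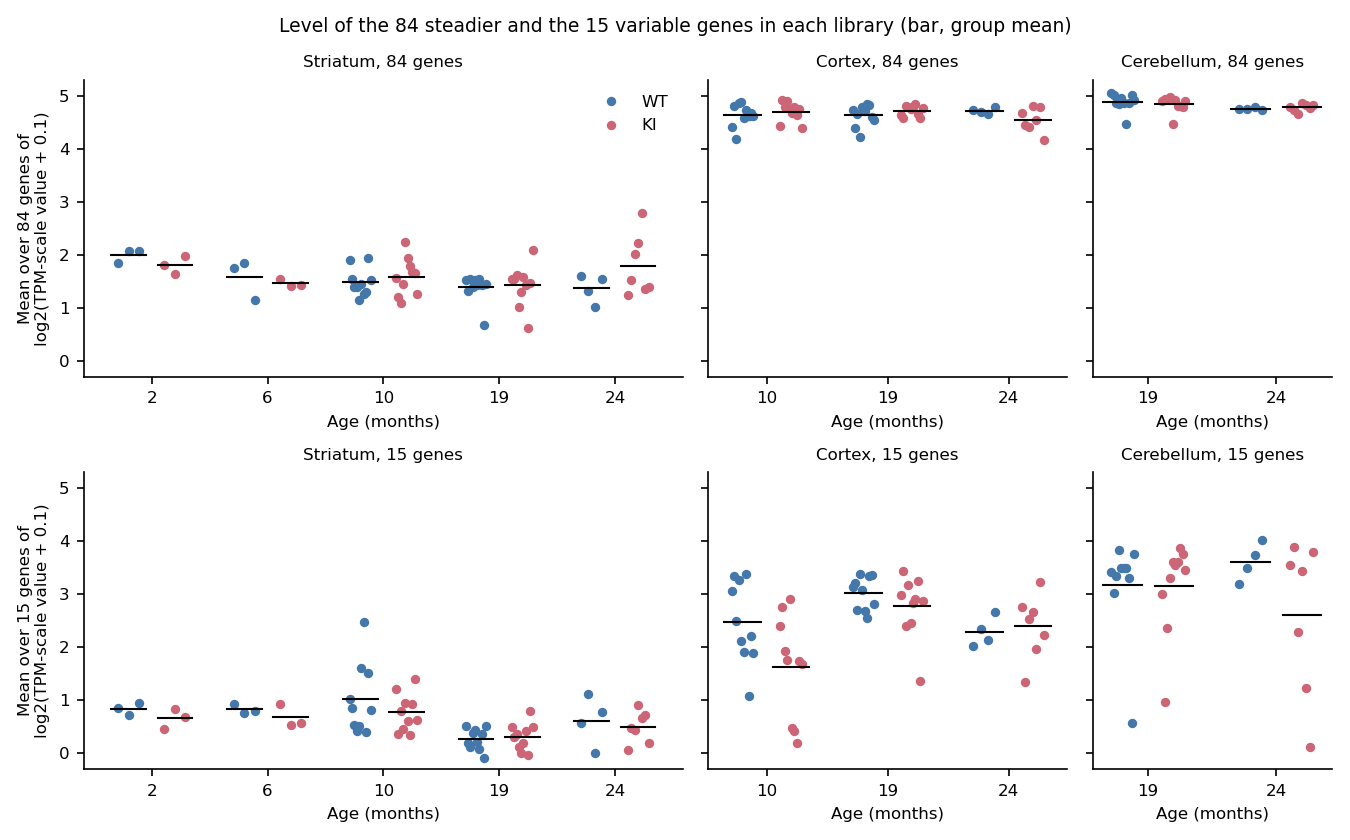
Mean over genes of log2(TPM-scale value + 0.1) (vertical axis) by age, region and genotype, for the 84 steadier genes (top) and the 15 variable genes (bottom); each point is 1 library and each bar a group mean. The 84 genes lie between 4.18 and 5.05 in cortex and cerebellum, while the 15 genes run from 0.11 to 4.01 there.

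In striatum the level of the 99 genes did not separate the genotypes, but single libraries stood far from the rest. The mean level was 1.63 ± 0.141 in KI and 1.82 ± 0.111 in WT at 2 months, and 1.34 ± 0.0922 and 1.47 ± 0.327 at 6 months (SD, n = 3). It was 1.46 ± 0.315 and 1.42 ± 0.256 at 10 months and 1.25 ± 0.355 and 1.22 ± 0.24 at 19 months (SD, n = 10). At 24 months it was 1.6 ± 0.51 in KI (n = 7) and 1.26 ± 0.273 in WT (n = 4). At 2 months KI libraries stood at 1.51, 1.6 and 1.79 and WT libraries at 1.69, 1.86 and 1.90. KI and WT libraries overlapped at all 5 ages. No p is given for these means, because the genes were chosen with results of these data known. In a tissue homogenate fewer cells of a type and less RNA per cell cannot be told apart.

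At 24 months the KI striatal libraries fell into a low and a high part. KI F1, M4, M3 and F2 stood at 1.07, 1.21, 1.27 and 1.37, within the span of the WT libraries, which stood at 0.87, 1.29, 1.44 and 1.45. KI F3, M1 and M2 stood at 1.78, 2.02 and 2.47. In KI M2 76 of the 99 genes lay above the highest WT library, in KI M1 60 and in KI F3 54, against 5 to 17 in the other 4 KI libraries. The share of all genes above the highest of the 4 WT libraries was not determined. At least 4-fold above the median of the other striatal libraries of 24 months were 18, 7 and 3 of the 99 genes in KI M2, M1 and F3. Of all genes 0.751%, 0.435% and 0.456% were. In KI M2 74 of the 84 and 2 of the 15 lay above the highest WT library. The summed value of the 99 genes was 1720 in KI M2 on the TPM scale, 1160 in KI M1 and 1040 in KI F3, and at most 776 in WT.

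The striatal level of the 99 genes moved with that of genes of cortex and, in part, of cerebellum. For comparison, 136 genes were taken that were high in WT cortex alone by the same limits at 19 months (cortex genes), 405 high in cerebellum alone (cerebellum genes) and 206 high in striatum alone (striatum genes). Over the 11 striatal libraries of 24 months the mean level of the 99 genes had a Pearson correlation of 0.986 with that of the cortex genes (Spearman 0.955), of 0.909 with the cerebellum genes (0.90) and of -0.526 with the striatum genes (-0.355). Over the 20 libraries of 10 months the Pearson values were 0.952, 0.734 and -0.427, and over the 20 of 19 months 0.907, 0.808 and 0.439. Without the 2 libraries farthest from the median the values for the cortex genes were 0.959 at 24, 0.942 at 10 and 0.879 at 19 months. At 19 months the Spearman value was 0.526 for the cortex genes, 0.638 for the cerebellum genes and 0.229 for the striatum genes, and without those 2 libraries the Pearson value fell to 0.539 for the cerebellum genes and to -0.0444 for the striatum genes. The libraries share their depth and composition across these gene sets, and the correlations are a description. The WT striatal libraries of 19 months had also chosen all of these gene sets, so the values at 19 months are not independent of the choice.

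**Figure D3:**
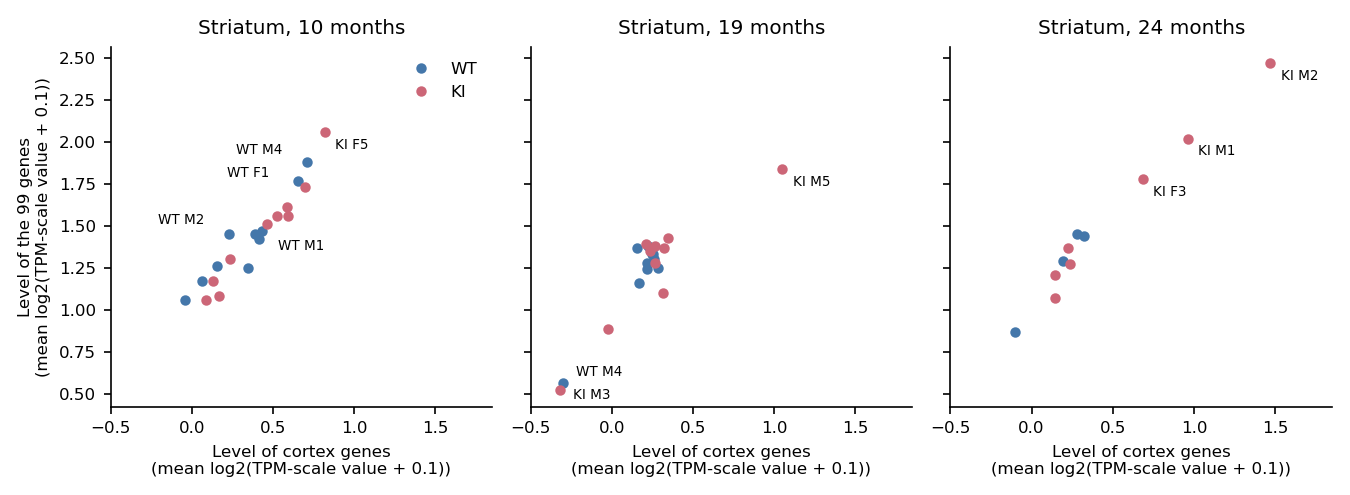
Mean level of the 99 genes (vertical axis) against that of 136 cortex genes (horizontal axis), both as log2(TPM-scale value + 0.1), in each striatal library of 10, 19 and 24 months; each point is 1 library. KI M1, M2 and F3 of 24 months, KI M5 of 19 months and KI F5 of 10 months are the highest in their panels on the vertical axis. WT M4 and WT F1 follow KI F5 at 10 months.

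The size of the excess could be compared with the step to a neighbouring region. For each gene, the value of a striatal library above the WT striatal median of its age was taken as a percentage of the distance from that median to the WT cortical mean, and the median over genes was formed. In KI M2 of 24 months it was 15.4% for the 99 genes and 15.6% for the cortex genes, while the cerebellum genes had covered 1.91% of their distance to cerebellum. In KI M1 the values were 7.08%, 6.57% and 1.62%, and in KI F3 4.96%, 3.73% and 1.29%. The sum of the striatum genes was 5140 in KI M2, 4270 in KI M1 and 6780 in KI F3 on the TPM scale, and 5260, 9540, 10000 and 11300 in WT F2, M2, M1 and F1. In KI M5 of 19 months the 99 genes had 4.26%, the cortex genes 7.04% and the cerebellum genes -0.0866%. In KI F5 of 10 months the 99 genes had 8.11% and the cortex genes 4.46%. Some WT striatal libraries of 10 months were high too. The mean level of the 99 genes stood at 1.88 in WT M4 and 1.77 in WT F1, against 2.06 in KI F5. The share of cortex in a striatal block was not tested.

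Some striatal libraries were low. KI M3 and WT M4 of 19 months stood at 0.52 and 0.57, where the other 18 libraries of that age began at 0.885, and 46 of the 99 genes in KI M3 lay below the lowest WT library. Both belonged to the 9 of 145 libraries whose rank correlation with their own region and age was exceptionally low, at 0.93 for KI M3 and 0.954 for WT M4 against a median of 0.981. The part of library quality in their level was not tested. The share of all genes that lay below the lowest WT library in KI M3 was not determined.

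Another deviation was seen in striatal libraries WT M1 and M2 of 10 months, of which WT M2 also had an exceptionally low rank correlation (0.96 against a median of 0.981). In these libraries 3 of the 15 variable genes were more than 4-fold above the median of the other striatal libraries of that age. Their summed TPM-scale value was 347 in WT M1 and 929 in WT M2, and between 14.2 and 40.9 in the other 18 libraries. The remaining 96 genes summed to 727 and 649, close to the median of 734 in the other 18 libraries. A sum is carried mostly by abundant genes and does not show shifts of genes of low level. In KI M2 of 24 months, the library with the highest overall level, the same 3 genes were between 0.795 and 1.62 times the median of the others. These libraries of 10 months and KI M2 of 24 months were thus not high in the same 3 genes. Without WT M1 and M2 no gene was lower in cortex than in striatum at 10 months, against 3 with them.

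KI against WT in striatum gave no called gene of the 99 at any age (edgeR, adjusted p under 0.05). At 2 months 0 of 95 tested were called, where 0% of all genes were, at 6 months 0 of 93 (0.013%), at 10 months 0 of 92 (0.00654%), at 19 months 0 of 87 (0.0196%) and at 24 months 0 of 95 (0%). The share of all genes called was thus near 0 as well. At an unadjusted p under 0.05 there were 7, 14, 5, 8 and 6, against 958 of 15407, 1264 of 15377, 884 of 15284, 260 of 15271 and 468 of 15645 genes. DESeq2 called 3 at 6 months, where it called 97 of 15377 genes, and 0 at the other ages, and limma-trend called 0 at all 5. Leaving out KI M2 at 2 months gave 1 call, among 3 of 15571 genes, and leaving out WT M1 at 6 months gave 3, among 199 of 15531.

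The median log2 difference of the set (KI minus WT) lay on different sides of 0 in striatum at different ages, though no gene passed the test. It stood at -0.12 in animals of 2 months and -0.18 in those of 6 months, where the median over all genes was -0.00294 and -0.0146. It stood at 0.11, 0.09 and 0.26 in animals of 10, 19 and 24 months, where the median over all genes was 0.00486, 0.00649 and 0.00978. At 24 months 71 of 95 were above 0. Without KI M1, M2 and F3 the median was -0.07, and 31 of 90 were above 0. It was 0.15 without KI M2 alone. At 2 months it was -0.04 without KI M2, -0.06 without WT M2 and -0.21 without KI M3, and at 6 months it was -0.07 without WT M2, all still below 0. The 15 variable genes had medians of -0.34, -0.03 and -0.22 at 10, 19 and 24 months, with 11 of 13, 8 of 11 and 11 of 13 tested below 0. The medians of the 84 were 0.12, 0.10 and 0.32. At 10 months the median was 0.07 without WT M1 and M2. At 19 months limma-trend gave a median of 0.00285 over the set and of -0.0467 over all genes, with 50 genes of the set above 0 and 49 below. At 19 months the WT libraries had also chosen the genes, so the values of that age are not independent of the choice. Pairs of the 84 genes had a median correlation of 0.412 over striatal libraries. The counts above or below 0 are therefore not counts of separate observations. The share of all genes above 0 was not determined.

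In cortex, likewise, 0 of 98 genes were called between KI and WT at 10, 19 and 24 months (edgeR), where 0%, 0% and 0% of all genes were. At an unadjusted p under 0.05 there were 19, 4 and 4, against 1013 of 15211, 813 of 15280 and 772 of 15437 genes. The share was above that of all genes at 10 months and below it at 19 and 24 months. DESeq2 called 1 at 10 months, where it called 13 of 15211 genes, and 0 later, and limma-trend 0 at all 3 ages. The 19 at 10 months were mostly variable genes: 14 of the 15 had an unadjusted p under 0.05, and all 15 were below 0 in KI, with a median log2 difference of -0.88 and a smallest adjusted p of 0.512. The mean level of the 15 was 1.62 ± 0.971 in KI and 2.47 ± 0.771 in WT (SD, n = 10), with overlapping libraries. Without KI M1, M2 and M3, the libraries of lowest level, the median was -0.57, 15 of 15 were below 0 and 5 had an unadjusted p under 0.05. At 19 months 15 of the 15 were below 0 in KI cortex, with a median of -0.30, and at 24 months 14 of the 15 were above 0, with a median of 0.25. The WT libraries of 19 months had also chosen the genes by their cortical level, so the value at 19 months is not independent of the choice. The 15 genes rose and fell together, so the counts below or above 0 are not counts of separate observations. The 84 steadier genes had medians of 0.03, 0.03 and -0.06 in cortex at the 3 ages.

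**Figure D4:**
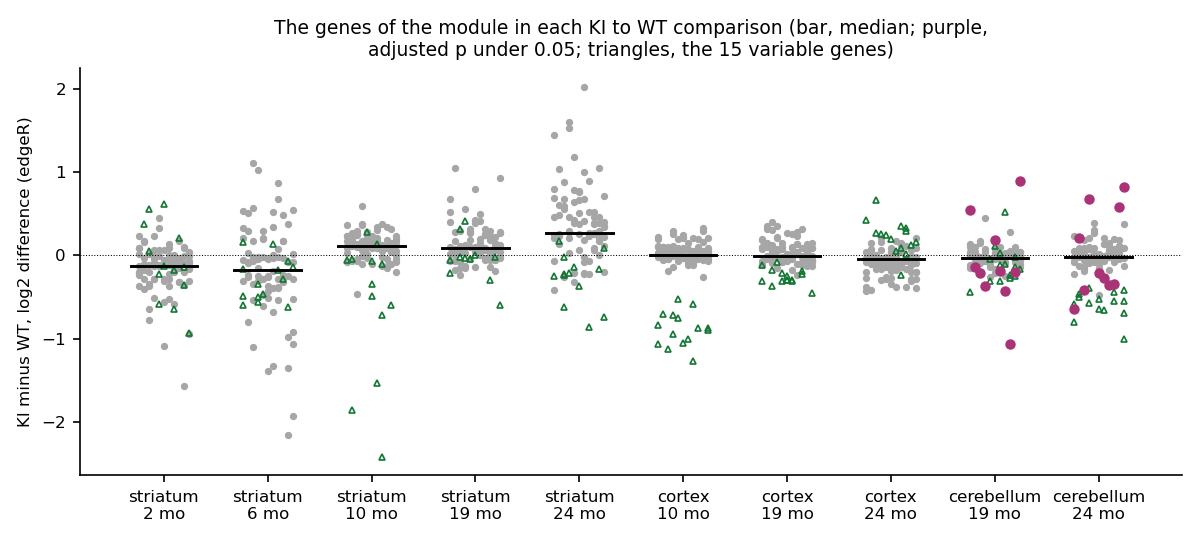
Log2 difference KI minus WT (vertical axis, edgeR) of each tested gene among the 99 in the 10 comparisons of region and age (horizontal axis); the bar is the median, purple points have an adjusted p under 0.05 and triangles are the 15 variable genes. Called genes appear in cerebellum at 19 and 24 months, 10 at each age, and the medians in striatum run from -0.18 to 0.26.

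Genes of the set passed the test between genotypes in cerebellum. At 24 months 10 of 98 were called, against 2.17% of all 15381 genes tested: 4 rose in KI (1.2% of all genes did) and 6 fell (0.969% did; edgeR with sex as a covariate, adjusted p under 0.05). At 19 months 10 of 98 were called too, against 2.33% of all genes: 3 rose (1.05%) and 7 fell (1.28%). With the replicate number as a block it was 6, 2 higher and 4 lower, where 199 of 15101 genes were called. The 19-month WT libraries had chosen the genes by their cerebellar level among others, and the animals of 24 months are independent of that choice. There were 6 genes called at both ages, 60% of each list. For all called genes neither this share nor the agreement in sign described next was determined. Of the 6 genes 2 rose and 4 fell at both ages, and no gene was called in opposite directions. All 10 genes called at 19 months had the same sign at 24 months, and all 10 called at 24 months had the same sign at 19 months. The gene with the largest difference at 19 months, at -1.06, stood at only -0.126 at 24 months (edgeR adjusted p = 0.898). None of the 15 variable genes was among the 14 called at either age. The count at 24 months rested on few WT animals: it was 4 without WT M1, 5 without WT F1, 5 without WT M2 and 9 without WT F2. It was 6 without KI M4, and 7 to 10 without another KI library. The count over all genes fell as well, from 334 to 142, 143 and 115 without WT M1, F1 and M2, to 306 without WT F2 and to 210 without KI M4.

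The genes that fell in cerebellum were mostly abundant ones. Of the 9 that fell at either age, 7 had a WT cerebellar level of at least 100 at 24 months on the TPM scale, and the median level of the 9 was 213. The 5 that rose had a median of 25.6 and none reached 100. Of the 99 genes 15 reached 100 there, so 8 abundant genes were not called. Log2 differences among the calls lay between 0.14 and 1.06 in size at 19 months and between 0.21 and 0.82 at 24 months. The abundance of a gene also sets the precision of its estimate, and its part in these counts was not tested.

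The 4 named genes were picked for the smallest p between KI and WT, so a separation of these groups in cerebellum follows in part from the choice. The share of all genes without overlap was not determined. ENSRNOG00000005345 was the most abundant of the 4 and fell. At 24 months its WT cerebellar libraries stood at 586, 661, 689 and 745 on the TPM scale, and the 7 KI libraries ran from 393 to 491 with a median of 441. All KI libraries lay below all WT libraries. At 19 months WT libraries ran from 672 to 782 (median 730) and KI libraries from 465 to 635 (median 541), again with no overlap. The log2 difference was -0.64 ± 0.05 (SE) at 24 months (edgeR adjusted p = 4.77e-05) and -0.43 ± 0.06 at 19 months (adjusted p = 0.000136). In cortex of 24 months it stood at 565 ± 41.4 in WT (SD, n = 4) and 574 ± 51.6 in KI (SD, n = 7) at 24 months, with a log2 difference of 0.07 ± 0.06 (SE). In striatum of 24 months WT libraries ran from 38.9 to 68.7 and KI libraries from 53.3 to 200.

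ENSRNOG00000016244 fell as well. Its WT cerebellar libraries of 24 months stood at 211, 211, 211 and 218, and the KI libraries ran from 153 to 187 with a median of 173. The groups did not overlap. At 19 months WT libraries ran from 172 to 270 (median 233) and KI libraries from 145 to 202 (median 179), with some overlap. The log2 difference was -0.35 ± 0.04 (SE; edgeR adjusted p = 0.000984) at 24 months and -0.37 ± 0.06 at 19 months (adjusted p = 0.000571).

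ENSRNOG00000016737 rose. In WT cerebellum of 24 months it stood at 22.7, 25.4, 26.5 and 27.7 on the TPM scale, and in KI from 35.5 to 47.3 with a median of 40.9. Every KI library was above every WT library. At 19 months WT libraries ran from 20.7 to 28.2 (median 22.4) and KI libraries from 28.1 to 39.3 (median 34.0), and the groups overlapped narrowly. The log2 difference was 0.67 ± 0.09 (SE; edgeR adjusted p = 0.00115) at 24 months and 0.55 ± 0.06 (adjusted p = 1.61e-05) at 19 months. WT cerebellum stood at 25.6 ± 2.14 and WT cortex at 23.3 ± 2.35 (SD, n = 4), so the KI cerebellar level was above that of both WT regions.

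ENSRNOG00000007189 was the least abundant of the 4 and rose. Its WT cerebellar libraries of 24 months stood at 1.92, 2.69, 2.76 and 2.86, and the KI libraries ran from 4.00 to 5.56 with a median of 4.50. At 24 months the groups did not overlap. At 19 months WT libraries ran from 1.5 to 3.05 (median 1.99) and KI libraries from 2.26 to 5.04 (median 3.88), overlapping. The log2 difference was 0.82 ± 0.13 (SE; edgeR adjusted p = 0.00459) at 24 months and 0.89 ± 0.14 (adjusted p = 0.00103) at 19 months. In WT animals of 24 months cortex stood at 4.01 ± 0.5 (SD, n = 4), above WT cerebellum at 2.56 ± 0.431 (log2 difference 0.91 ± 0.11 SE, adjusted p = 4.51e-05), and KI cerebellum stood at 4.60 ± 0.531 (SD, n = 7).

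**Figure D5:**
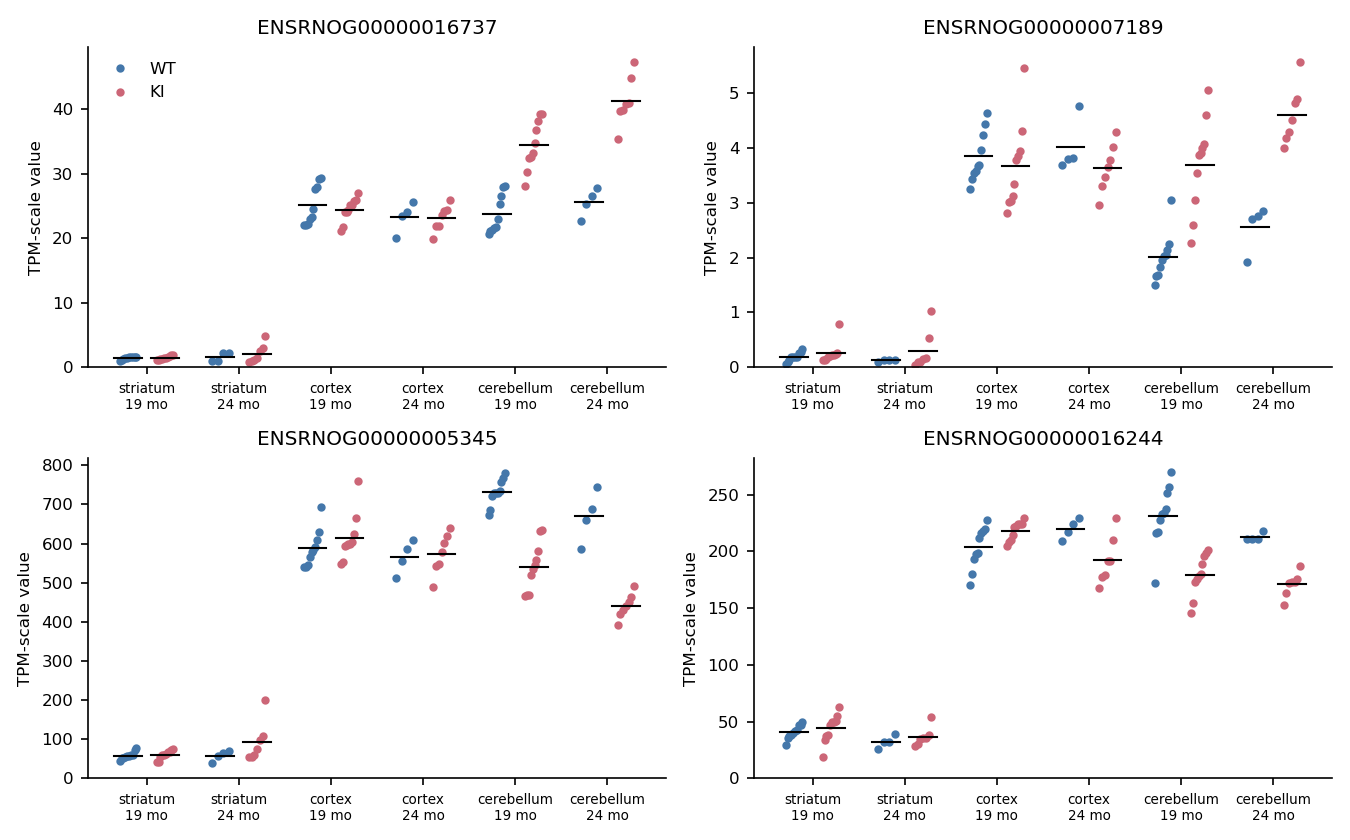
TPM-scale value (vertical axis) of the 4 named genes in each WT and KI library of 19 and 24 months, by region (horizontal axis); each point is 1 library and each bar a group mean. In cerebellum of 24 months the KI and WT libraries of each gene do not overlap, the KI libraries being higher for ENSRNOG00000016737 and ENSRNOG00000007189 and lower for the other two.

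Whether the genotype difference itself differed between regions was tested within animals. Between cortex and cerebellum 4 of 99 genes passed at 19 months, where 0.322% of all genes did, and 1 of 98 at 24 months, where 0.224% did (edgeR, region by genotype term). The 4 at 19 months were the 4 named genes, which had been picked by their p between KI and WT. All calls between KI and WT were in cerebellum, so the passing of these 4 is not independent of that choice. The WT libraries of 19 months had also chosen the 99 genes. The cortical minus the cerebellar difference was 0.46 ± 0.08 for ENSRNOG00000005345 (SE, adjusted p = 0.00592), 0.43 ± 0.07 for ENSRNOG00000016244 (adjusted p = 0.00273), -0.62 ± 0.08 for ENSRNOG00000016737 (adjusted p = 0.000448) and -0.99 ± 0.19 for ENSRNOG00000007189 (adjusted p = 0.0167). At 24 months ENSRNOG00000005345 passed, with 0.68 ± 0.08 (adjusted p = 0.00365). ENSRNOG00000016737 had -0.63 ± 0.12 there (adjusted p = 0.0521), ENSRNOG00000007189 -0.94 ± 0.18 (adjusted p = 0.0714) and ENSRNOG00000016244 0.19 ± 0.07 (adjusted p = 0.402).

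Between striatum and cerebellum 0 of 98 genes passed at 19 months, where 0.126% of all genes did, and 0 of 99 at 24 months, where 0.00619% did (edgeR). At an unadjusted p under 0.05 there were 13 and 8, against 956 of 15881 and 761 of 16153 genes. Between striatum and cortex 0 of 99 passed at 10, 19 and 24 months, where 0%, 0% and 0% of all genes did. At an unadjusted p under 0.05 there were 6, 9 and 7, against 1085 of 15840, 379 of 15864 and 230 of 16074 genes. No other tool was run on these terms. The WT libraries of 19 months had also chosen the genes, so the values at that age are not independent of the choice. For the named genes the striatal minus the cerebellar difference at 19 months ranged from -0.51 ± 0.33 for ENSRNOG00000007189 to 0.52 ± 0.11 for ENSRNOG00000005345 (SE; edgeR adjusted p = 0.995 and p = 0.0792).

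In striatum the share of genes called between ages lay below that of all genes for 10 and 24 months and above it for 2 and 6 months. Between 10 and 24 months, with genotype and sex as covariates, 4 of 97 genes were called, 2 up and 2 down, where 13.7% of all genes were (edgeR). Between 2 and 6 months, a comparison added after the group levels had been seen, 12 of 97 were called where 5.85% of all genes were. Of these 11 were lower at 6 months, where 2.94% of all genes were, and 1 was higher, where 2.92% were. The log2 differences of the 11 ran from -0.78 to -0.22, and 76 of the 97 genes were below 0. Genes of the set moved partly together in striatum, so the 76 are not separate observations. In WT animals the mean level of the 99 genes was 1.689, 1.86 and 1.90 in the libraries of 2 months and 1.09, 1.62 and 1.687 in those of 6 months. In KI animals it was 1.51, 1.6 and 1.79 at 2 months and 1.28, 1.3 and 1.45 at 6 months. Within each genotype the libraries of the 2 ages did not overlap, with WT only just apart (1.689 against 1.687).

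In cortex 19 of 99 genes were called between 10 and 24 months, where 10.9% of all genes were (edgeR). Of these 17 were lower at 24 months, where 4.54% of all genes were, and 2 were higher, where 6.38% were. One of the 17 was ENSRNOG00000058439, at -4.23, the gene whose counts come in steps. DESeq2 called 23, where 2060 of 15886 genes were called. With limma-trend 8 of 99 were called, 2 higher and 6 lower, where 1254 of 17067 genes were, so the count then lay near the share of all genes. In the edgeR fit the other 16 lay between -0.27 and -0.10, and none of the 15 variable genes was called. ENSRNOG00000005345 and ENSRNOG00000016737 were among those called, at -0.12 ± 0.03 and -0.15 ± 0.04 (SE, edgeR adjusted p = 0.0202 and p = 0.00496). In KI cerebellum 0 of 98 genes were called between 19 and 24 months, where 0.975% of all genes were (edgeR). At an unadjusted p under 0.05 there were 17, against 2356 of 15288 genes. DESeq2 called 3 of the 98, where it called 566 of 15288 genes, and limma-trend called 0. Age and cohort cannot be told apart in any of these comparisons.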

How the data were processed

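Bulk RNA-seq of 145 libraries was used. Per the file headers, the deposited estimated counts per gene were made on the reference Rat.B6.0, and 8.12% of them were not whole, so they were rounded. The authors' second table is named for FPKM, but each column sums to 1000000, so its deposited values are on a TPM scale. The sources used here give no aligner, counter or annotation. The design had assumed whole counts.

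Counts were tested in R 4.3.3 with edgeR 4.0.16 (TMM, filterByExpr, robust quasi-likelihood fit, sex as a covariate from 10 months on, or animal as a block between regions), with Benjamini-Hochberg adjustment over all genes tested and a threshold of 0.05. The scripts were tested on simulated data. Alternatives were DESeq2 1.42.0, limma 3.58.1 (limma-trend on log2(TPM-scale value + 0.1 or 1)), other size factors, no filter, a replicate block and each library left out. Levels are means of log2(TPM-scale value + 0.1).

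The genes and lists were chosen with earlier results of these data known. The named genes are the 2 that rose and the 2 that fell with the smallest p over the 10 comparisons of KI with WT, at an adjusted p under 0.05. The split into 15 and 84 genes and the comparison of 6 with 2 months were added after values were seen.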

Additional observations from a re-analysis of the deposited data

Results flagged for a closer look

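In groups of 4 to 10 libraries a value was singled out when its gap to the nearest other library was a large part of the group's range, which chance does in about 1 in 20 groups. For the mean level of the 99 genes 16 groups were examined and 2 stood out. KI M4 in cortex of 19 months stood at 4.1, and the next library at 4.38. WT M4 in striatum of 19 months stood at 0.565, and the next at 1.16, and this library helped to choose the genes. Of 16 pairs of a named gene and a cerebellar group 2 stood out: ENSRNOG00000007189 at 3.05 in WT M5 of 19 months, with the next at 2.24, and ENSRNOG00000016244 at 218 in WT F2 of 24 months, with the next at 211.

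The difference between KI and WT differed between cortex and cerebellum, by the region by genotype term of edgeR, for the 4 named genes at 19 months. The cortical minus the cerebellar log2 difference was -0.618 for ENSRNOG00000016737, -0.989 for ENSRNOG00000007189, 0.46 for ENSRNOG00000005345 and 0.432 for ENSRNOG00000016244. At 24 months it was 0.684 for ENSRNOG00000005345.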

How the results depend on the processing

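The 4 named genes kept direction and call in cerebellum under 112 of 112 alternatives. They had been picked for their small p, so this follows in part from the choice. Of 191 alternatives for all other results 14 moved a count by over 1.5 times. The others kept the count within that limit or, for the difference in mean striatal level, moved it by less than 1 SD between libraries. That difference, KI minus WT, still changed sign at 6 months, from -0.121 to 0.0164 with the median over genes and 0.0311 with genes chosen at 24 months. It changed sign at 24 months too, from 0.338 to -0.0307 without KI M1, M2 and F3. With the median over genes it went from 0.0454 to 0.0048 at 10 months and from 0.0345 to 0.0936 at 19 months. The cause was not tested. DESeq2 called 3 genes in striatum at 6 months, 1 in cortex at 10 months and 3 between 19 and 24 months in KI cerebellum, each against 0, where it called 97 of 15377, 13 of 15211 and 566 of 15288 genes. For cortex of 24 against 10 months limma-trend called 8, against 19. For cerebellum of 24 months limma-trend without a filter called 6, against 10. Leaving out each library gave 0 to 1 calls in striatum at 2 months, 0 to 3 at 6 months and 4 to 10 in cerebellum at 24 months. A limit of 3-fold in place of 4-fold gave 161 genes, and 6-fold gave 58.

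With the replicate block 6 genes were called in cerebellum at 19 months, against 10, and 10 at 24 months. In striatum and cortex 0 were called with it. Animals of a number were different animals, and the pairs' deviations did not all correlate above 0.1 (in cerebellum of 19 months 4 of 10 did, and in striatum of 24 months the values ran from -0.539 to 0.313), so the numbers were not taken to pair them. Leaving out sets of libraries was chosen after seeing the data. Low striatal values limit the precision there.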

Other observations

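The genotype difference of the 15 variable genes was in cerebellum of 24 months below 0 for 15 of 15, with a median log2 difference of -0.55, and 0 were called by edgeR. Without KI M2 and M3, the libraries of lowest level, the median was -0.07 and 13 of 15 were below 0. The 15 genes rose and fell together, so these are not counts of separate observations.

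The summed TPM-scale value of the 405 cerebellum genes was 16600 in WT M1 and 38100 in WT M2 in striatum of 10 months, the libraries in which 3 of the 15 variable genes stood high. The sums of the other libraries are not given, so these values are not called high. The share of all genes at least 4-fold up was 1.2% in WT M1 and 1.09% in WT M2, and 0.252% to 0.578% in the other striatal libraries of 10 months. The largest share in striatum was 1.62%, in KI M4 of 24 months.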
